A study of Mus musculus with 18 samples.

Results

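Tardbp, the mouse gene for the RNA-binding protein TDP-43, was followed across 6 genotypes of mouse spinal cord together with 7 further genes: Ewsr1 and Taf15 of the FET family, Matr3, the hnRNP genes Hnrnpa1, Hnrnpa2b1 and Hnrnpk, and Tdp2. The 8 genes were taken by symbol, matched to the Ensembl identifiers of a table of 54446 mouse genes, and all 8 passed the filter for low counts that left 20635 genes to test. Total RNA came from spinal cords of 18 untreated mice aged 10 months, 3 for each genotype. The groups named Q33;TDP-43 and Q22;TDP-43 were double mutants heterozygous for knocked-in human ATXN2, with a tract of 33 or 22 glutamines, and for knocked-in human TDP-43. The other groups were heterozygous for human TDP-43 alone (TDP-43), for human ATXN2 with 33 glutamines alone (Q33) or with 22 alone (Q22), and the controls were non-transgenic C57BL/6 mice (NTg). The product of ATXN2, ataxin-2, binds RNA, and glutamine tracts of intermediate length in it raise the risk of amyotrophic lateral sclerosis. Reads were counted on mouse genes, so a value for Tardbp is a count at the mouse gene. Whether reads of the human TDP-43 sequence were also counted there was not tested. RNA of the human sequences was not analysed here. The sources used here give neither the place of the human insertions nor whether a mouse allele was replaced.

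TDP-43, the FET proteins and the hnRNPs bind nascent RNA in the nucleus and take part in splicing, polyadenylation and RNA transport. Several of them carry low-complexity, prion-like domains, shuttle between nucleus and cytoplasm, and are mutated in rare families with amyotrophic lateral sclerosis or related disease. TDP-43 is known to bind UG-rich RNA and to lower its own mRNA through the 3′ untranslated region. Matr3 encodes matrin-3, a nuclear matrix protein that binds RNA and TDP-43. Tdp2 differs from the others: despite its symbol it does not encode TDP-43 but tyrosyl-DNA phosphodiesterase 2, which removes trapped topoisomerase II from DNA ends.

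Libraries held 16061359 to 30978678 counts on genes, and the members were read at 317 (Tdp2) to 10252 (Matr3) counts per library. Values below are in CPM, each count taken relative to the effective library size from TMM, which corrects library totals for a few genes taking a large share, and were all from 3 libraries a genotype, each from its own mouse. The RNA of 2 mitochondrial ribosomal genes took 12.7% to 28.7% of a library, with 26.1% ± 2.7 in Q33;TDP-43 cords and genotype means of 17.7% to 20.4% elsewhere (SD, n = 3 each). The mean log2 CPM of 6 Hox10 and Hox11 genes, which mark lumbosacral cord, was 1.76 ± 1.57 in Q33;TDP-43 cords, -0.12 ± 3.15 in Q22;TDP-43, -1.78 ± 0.42 in TDP-43, 0.73 ± 2.79 in Q33, -1.36 ± 1.01 in Q22 and -1.43 ± 0.60 in NTg cords (SD, n = 3 each). Single cords of Q22;TDP-43 (3.51) and Q33 (2.71 and 1.95) were as high as the Q33;TDP-43 cords (0.55 to 3.54). Summed over the 6 genes, values ran from 1.33 CPM in Q33 replicate 1 to 103 CPM in Q33;TDP-43 replicate 2. Whether all samples held the same segments of cord was not tested. Markers of neurons, astrocytes and oligodendrocytes were present in every library, with none of 9, 6 and 6 genes at 0. Y-linked transcripts were present in 1 of 3 Q33;TDP-43, 1 of 3 Q22;TDP-43, 2 of 3 TDP-43, 2 of 3 Q33, 3 of 3 Q22 and 0 of 3 NTg libraries.

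The 8 genes were moderately to highly expressed in cord, and their order is given here per kilobase of summed exon length. Hnrnpk, an RNA- and DNA-binding hnRNP, was highest with a median of 47.8 CPM per kb over the 18 libraries (range 41.1 to 52.9). It was followed by Hnrnpa2b1, which is known for sorting RNA to dendrites and to myelin, at 41.8 CPM per kb (34.1 to 50.3). Matr3 had 33.9 CPM per kb (31.5 to 39.0) and Hnrnpa1, a splicing repressor, 31.9 (28.8 to 35.8). Ranges of neighbours in that order overlapped down to Hnrnpa1, and then a gap followed. Taf15 had 20.1 CPM per kb (15.9 to 22.4), Ewsr1 had 19.3 (16.2 to 21.8) and Tardbp had 15.6 (13.7 to 16.6), again with overlapping ranges from gene to gene. Tdp2 stood apart below them at 6.54 CPM per kb (4.93 to 8.81). The summed exons of all transcripts include isoforms that cord may not use, and pairs that match several places were left out of the counts, so Hnrnpa1 and Matr3, which have near-identical processed copies in the genome, may be undercounted.

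**Figure D1:**
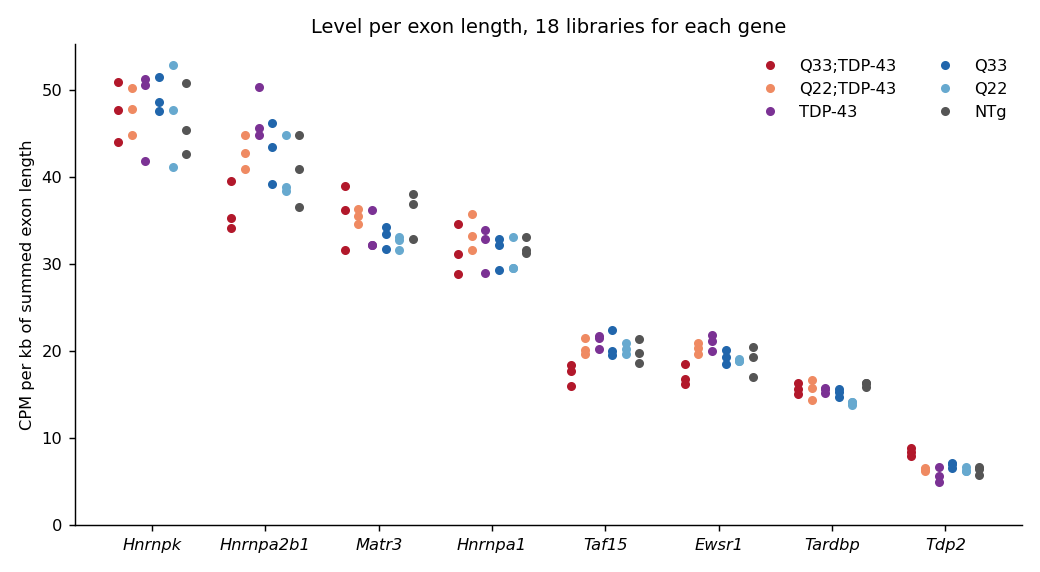
Level of each member per kilobase of summed exon length (CPM per kb, vertical axis), with 1 point per library coloured by genotype. Hnrnpk is highest with a median of 47.8 CPM per kb and Tdp2 lowest at 6.54, and no library of Tdp2 reaches the 13.7 CPM per kb of the lowest Tardbp library.

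Tardbp varied little. Its coefficient of variation over all 18 libraries was 5.57%, lower than in all but 3.87% of genes with at least 10 CPM. Those genes were not matched for level. With a mean of 120 CPM Tardbp was above 93.2% of all genes tested, so the rank is not one among genes of like level. Tardbp lies on the minus strand of chromosome 4 (mm10, 148612382 to 148627019, ENSMUSG00000041459.15). A stretch of its 3′ untranslated region is shown because UG repeats are the sequence TDP-43 is known to prefer. The principal transcript in GENCODE M21 (same assembly, another release than that of the counts) holds TGTGTG at 6 places, overlaps counted, all of them within the 5882 bases of the 3′ untranslated region. Of 1537 principal transcripts of genes between 0.8 and 1.2 times its length, 95.7% hold TGTGTG at least once and the median is 4, so 6 places do not set Tardbp apart. The 30 bases with the most TGTG or GTGT steps start at base 1102 of that region (GRCm38, minus strand, chr4:148617133-148617162), with the steps in capitals:
Tardbp 3′ untranslated region: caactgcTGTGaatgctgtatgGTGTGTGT
No binding was measured here, and the stretch is a description of sequence only.

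No difference in counts at mouse Tardbp between cords with and without knocked-in human TDP-43 passed the test. These counts were not checked for reads of the human sequence. In Q33;TDP-43 cords it had 118, 127 and 122 CPM, in Q22;TDP-43 cords 123, 129 and 112 CPM, and in TDP-43 cords 123, 122 and 118 CPM. Without human TDP-43 it had 121, 115 and 119 CPM in Q33 cords, 109.9, 107 and 110.3 CPM in Q22 cords, and 127, 127 and 124 CPM in NTg cords. The 3 Q22 libraries were the lowest of all 18, and the other 15 lay between 112 and 129 CPM. Carriers of human TDP-43 exceeded mice of the same ATXN2 background without it by 0.04 log2 CPM on average (9 against 9 libraries, exact permutation within backgrounds, two-sided p = 0.22, 8000 relabellings). The difference was -0.06 with no ATXN2 knock-in, 0.15 with Q22 and 0.04 with Q33. In the edgeR quasi-likelihood fit of all genes the carrier difference was 0.04 (SE 0.04, adjusted p = 0.96), and 0 of the 8 members passed an adjusted p of 0.05, at which 0.00485% of all genes were called. At an unadjusted p under 0.05 there were 0 members and 5.91% of all genes. DESeq2 called 0 members there, beside 7 higher and 19 lower of all genes tested.

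The low Tardbp values of Q22 cords did not overlap those of any other genotype, but they did not pass the correction over all genes. Against NTg the log2 fold change was -0.21 (SE 0.07, unadjusted p = 0.0068, adjusted p = 0.91, edgeR), and no gene of 20635 was called in that comparison (0%). The share of all genes whose 3 Q22 libraries did not overlap the 3 NTg libraries was 10.6%. Against Q22 cords, Q22;TDP-43 cords had 0.15 more on the log2 scale (SE 0.07, unadjusted p = 0.039, adjusted p = 0.97) and Q33 cords 0.12 more (SE 0.07, adjusted p = 1). All 3 Q22 libraries held Y-linked transcripts and no NTg library did. Among libraries with Y-linked transcripts, Tardbp was 107 to 110.3 CPM in the 3 Q22 libraries and 112 to 123 CPM in 6 libraries of other genotypes. Over all genotypes it was 107 to 123 CPM (median 115) in the 9 libraries with Y-linked transcripts and 118 to 129 CPM (median 124) in the 9 without. With Y-linked reads as a covariate the Q22 difference from NTg was -0.15 (adjusted p = 0.83). With that covariate the carrier difference was 0.04 (adjusted p = 0.96) and the difference of Q33;TDP-43 from NTg -0.03 (adjusted p = 0.85), and Tardbp passed in none of the 14 comparisons.

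The genes with mean levels of at least 10 CPM whose log2 CPM followed Tardbp most closely over the 18 libraries, of 9128 searched, were Atic (r = 0.72), Ddx3x (0.70), Mmd2 (0.65), Rnd3 (0.63) and Eif2s3x (0.60). Ddx3x and Eif2s3x are X-linked and known to escape X inactivation. After genotype means were taken off, the closest were Klf3 (r = 0.83), Ccnk (0.80), Txn2 (0.77), Pdp2 (0.76) and Olfml1 (0.74). For the mean of the 8 members they were Ifngr1 (r = 0.77), Tmem176b (0.72), Mcl1 (0.72), Crnkl1 (0.71) and Hnrnph1 (0.71). On deviations from genotype means they were Rpl11 (0.91), Pcbp1 (0.90), Scp2 (0.89), Sirt2 (0.86) and Mrps21 (0.86). These correlations were the highest of many and share the libraries' depth and makeup, and carry no test.

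**Figure D2:**
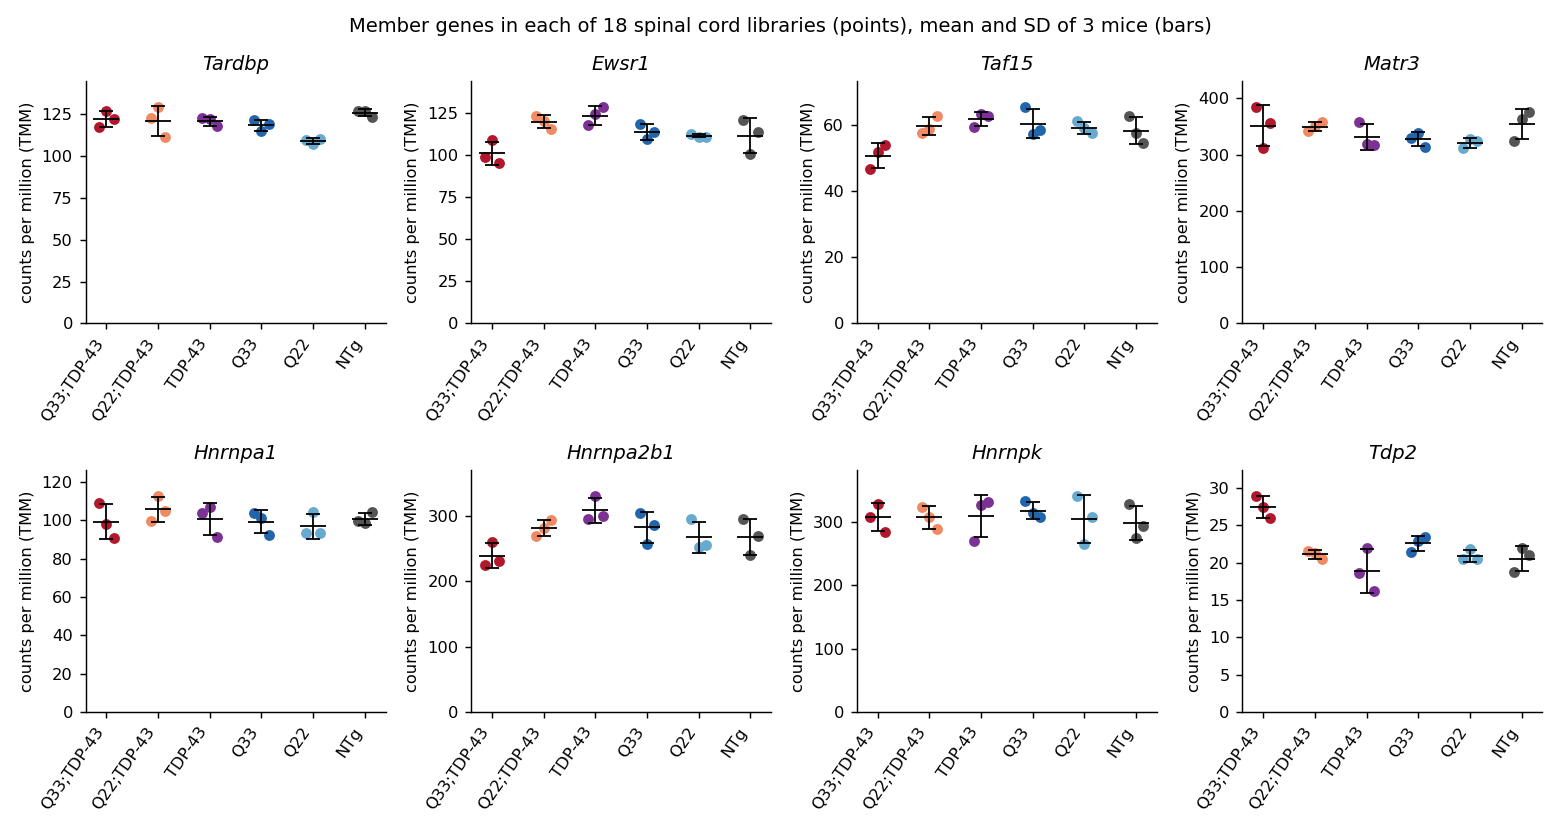
TMM-scaled CPM of each member (vertical axes, from 0) in the 6 genotypes, with 1 point per mouse and bars for the mean and SD of 3 mice. Tdp2 is highest in the 3 Q33;TDP-43 cords (26.0 to 29.0 CPM), Taf15 is lowest there (46.5 to 53.7 CPM), and Tardbp is lowest in the 3 Q22 cords (107 to 110.3 CPM).

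Ewsr1 and Taf15 were low in the Q33;TDP-43 double mutants. Ewsr1 (chromosome 11, 5069689 to 5099266, minus strand, ENSMUSG00000009079.16) encodes an RNA-binding protein with a prion-like amino end that is best known as a fusion partner in Ewing sarcoma. It had 99.1, 109 and 95.6 CPM in Q33;TDP-43 cords, against 124, 120.3 and 116 CPM in Q22;TDP-43 cords and 118, 125 and 129 CPM in TDP-43 cords. Every Q33;TDP-43 library was below every library of both other genotypes with human TDP-43. Ewsr1 fell in the edgeR test against TDP-43 cords (log2 fold change -0.29, SE 0.08, adjusted p = 0.021) and against Q22;TDP-43 cords (-0.25, SE 0.08, adjusted p = 0.044). It had 119, 109.5 and 114 CPM in Q33 cords, 113, 111 and 111 CPM in Q22 cords, and 121, 101 and 114 CPM in NTg cords. The difference of Q33;TDP-43 from NTg was -0.14 (SE 0.08, adjusted p = 0.24), and 1 NTg library lay inside the range of the double mutants. The call against TDP-43 was lost without TDP-43 replicate 3 or 33-glutamine double-mutant replicate 1 or 3 (adjusted p 0.065 to 0.11), and that against Q22;TDP-43 without any 1 of the 6 libraries except 33-glutamine double-mutant replicate 2 (0.088 to 0.16).

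Taf15 (chromosome 11, 83473086 to 83506743, plus strand, ENSMUSG00000020680.15) encodes the TFIID-associated member of the FET family. It had 46.5, 51.6 and 53.7 CPM in Q33;TDP-43 cords, the lowest 3 values of all 18 libraries. It had 57.5, 58.7 and 62.7 CPM in Q22;TDP-43 cords, 59.2, 63.2 and 62.7 CPM in TDP-43 cords, 65.3, 57.1 and 58.4 CPM in Q33 cords, 61.0, 58.9 and 57.4 CPM in Q22 cords, and 62.5, 57.5 and 54.4 CPM in NTg cords. The Q33;TDP-43 libraries overlapped no other genotype, and the nearest library was an NTg cord. Taf15 fell against TDP-43 cords (log2 fold change -0.29, SE 0.08, adjusted p = 0.028). The differences were -0.24 from Q22;TDP-43 (adjusted p = 0.062), -0.25 from Q33 (adjusted p = 0.11) and -0.20 from NTg (SE 0.08 each, adjusted p = 0.11). The call against TDP-43 was lost without any 1 of the 6 libraries except 33-glutamine double-mutant replicate 3 (adjusted p 0.051 to 0.15).

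Of the 3 hnRNP genes, Hnrnpa2b1 fell in the Q33;TDP-43 cords in 1 comparison, and the others passed the test in none. Hnrnpa2b1 (chromosome 6, 51460932 to 51469894, minus strand, ENSMUSG00000004980.16) had 224, 261 and 232 CPM in Q33;TDP-43 cords, against 269, 282 and 295 CPM in Q22;TDP-43 cords and 295, 331 and 300.03 CPM in TDP-43 cords. Again all 3 double mutants with 33 glutamines lay below the other 6 libraries with human TDP-43. It fell against TDP-43 cords (log2 fold change -0.37, SE 0.10, adjusted p = 0.018), while the difference from Q22;TDP-43 was -0.24 (SE 0.10, adjusted p = 0.11). The call was lost without TDP-43 replicate 3 (adjusted p = 0.054) or 33-glutamine double-mutant replicate 1 (0.10). The gene had 304, 258 and 286 CPM in Q33 cords, 295, 252 and 255 CPM in Q22 cords and 295, 241 and 269 CPM in NTg cords. Its Q33;TDP-43 values overlapped the range of each of those genotypes. TDP-43 cords held the highest mean of the 6 genotypes, 309 ± 19.5 CPM against 268 ± 27.1 CPM in NTg cords (SD, n = 3 each), a log2 difference of 0.20 that did not pass (SE 0.10, unadjusted p = 0.046, adjusted p = 1).

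Hnrnpa1 (chromosome 15, 103240432 to 103246692, plus strand) stayed between 90.8 and 113 CPM in all 18 libraries. It had 109, 98.0 and 90.8 CPM in Q33;TDP-43 cords and 99.7, 98.4 and 104 CPM in NTg cords, with a log2 fold change of -0.02 (SE 0.09, 95% interval -0.20 to 0.16). Hnrnpk (chromosome 13, 58391142 to 58403343, minus strand) had 309, 329 and 285 CPM in Q33;TDP-43 cords and 328, 275 and 294 CPM in NTg cords (log2 fold change 0.04, SE 0.10, 95% interval -0.17 to 0.26). Matr3 (chromosome 18, 35562146 to 35593835, plus strand) had 384, 312 and 357 CPM in Q33;TDP-43 cords and 324, 363 and 376 CPM in NTg cords (log2 fold change -0.01, SE 0.08, 95% interval -0.19 to 0.16). The Q33;TDP-43 and NTg libraries overlapped in all 3 genes. Matr3 had 341, 350 and 358 CPM in Q22;TDP-43 cords, all above the 311, 327 and 323 CPM of Q22 cords, with a log2 difference of 0.13 (SE 0.08, adjusted p = 0.97). None of the 3 genes passed the test in any of the 14 comparisons and interactions fitted with TMM scaling. The 95% interval of the difference between Q33;TDP-43 and NTg cords allows changes in either direction for all 3.

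Tdp2 moved the other way. Tdp2 (chromosome 13, 24831679 to 24842153, plus strand, ENSMUSG00000035958.3) had 29.0, 27.5 and 26.0 CPM in Q33;TDP-43 cords, the highest 3 values of all 18 libraries. It had 21.6, 21.3 and 20.4 CPM in Q22;TDP-43 cords, 18.6, 21.99 and 16.2 CPM in TDP-43 cords, 21.4, 22.9 and 23.4 CPM in Q33 cords, 20.5, 21.8 and 20.4 CPM in Q22 cords, and 18.7, 21.9 and 20.99 CPM in NTg cords. The lowest double mutant with 33 glutamines was above the highest library of every other genotype. Tdp2 rose 1.34-fold against NTg (log2 fold change 0.42, SE 0.11, adjusted p = 0.016), 1.45-fold against TDP-43 (0.54, SE 0.11, adjusted p = 0.0049) and 1.30-fold against Q22;TDP-43 (0.38, SE 0.11, adjusted p = 0.024). The difference from Q33 was 0.28 (SE 0.11, adjusted p = 0.16). The call against NTg was lost without 33-glutamine double-mutant replicate 1 (adjusted p = 0.086) or NTg replicate 1 (0.067), and that against Q22;TDP-43 without 33-glutamine double-mutant replicate 1 or 2 or Q22;TDP-43 replicate 2 or 3 (0.055 to 0.11).

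The calls over the 8 genes are set here beside those over all genes tested. Against TDP-43, 4 of 8 members were called (1 higher, 3 lower), where 12.6% of all genes were (5.98% higher, 6.66% lower). Against Q22;TDP-43, 2 of 8 were called (1 higher, 1 lower), where 12.8% were (6.67% higher, 6.17% lower). Against NTg, 1 of 8 was called, Tdp2, where 12.1% were (5.68% higher, 6.39% lower). Against Q33, 0 of 8 were called by edgeR, where 0.892% of all genes were. DESeq2 also called 0 of 8 there, beside 555 higher and 487 lower of all genes tested. By edgeR, 4 members (Ewsr1, Taf15, Hnrnpa2b1 and Tdp2) had an unadjusted p under 0.05, as 17.7% of all genes did. Groups without overlap were found for 4 of 8 members against TDP-43 (27.2% of all genes), 4 of 8 against Q22;TDP-43 (29.2%), 3 of 8 against Q33 (22.7%) and 2 of 8 against NTg (30.2%). The 8 members were not chosen at random, so these shares are a description. The comparisons share the 3 Q33;TDP-43 libraries and are not independent of each other.

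**Figure D3:**
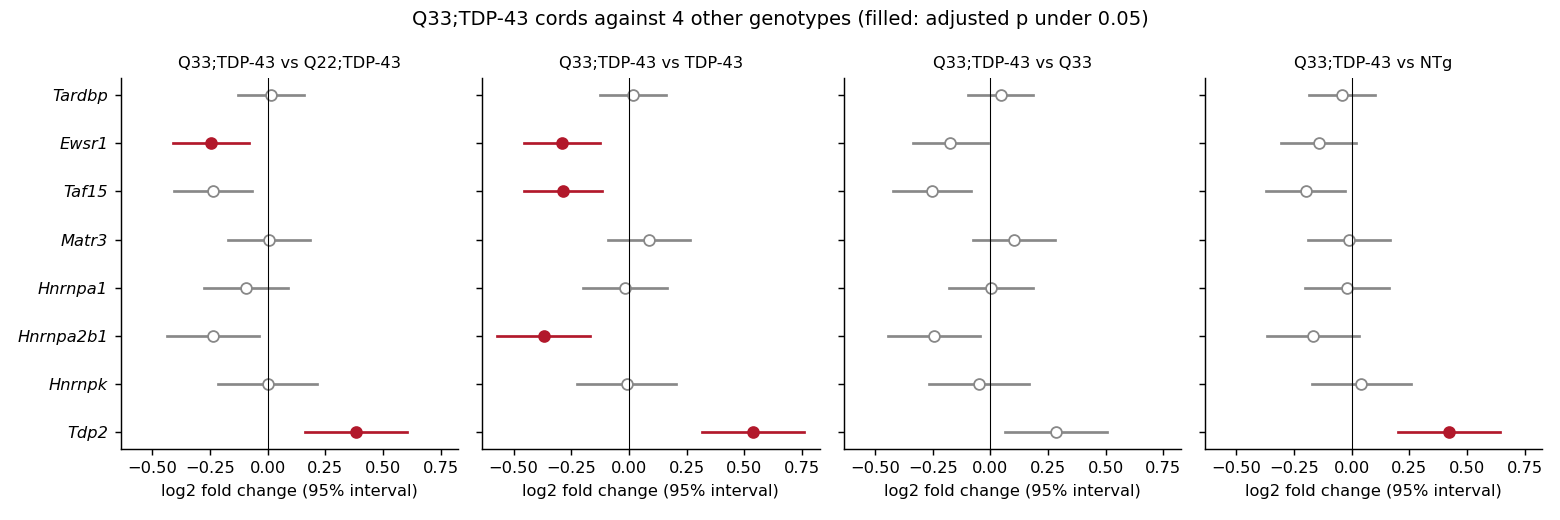
Log2 fold change of each member in Q33;TDP-43 cords over Q22;TDP-43, TDP-43, Q33 and NTg cords (points, with 95% intervals), filled where the adjusted p was under 0.05. Ewsr1, Taf15 and Hnrnpa2b1 lie below 0 in all 4 panels and Tdp2 above it, with estimates between -0.37 and 0.54.

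Outside the Q33;TDP-43 comparisons no member passed the test. In 8 comparisons edgeR called no gene at all (0%): Q22, Q33 and TDP-43 against NTg, Q22;TDP-43 against Q22 and against TDP-43, Q33 against Q22, and both interactions. Q22;TDP-43 against NTg had 0 of 8 members called, where 0.00969% of all genes were. DESeq2 called 0 members in each of these comparisons too. Of all genes tested, it called 29 higher and 41 lower in the interaction with Q33. In TDP-43 against NTg it called 6 higher and 0 lower, and elsewhere among these at most 1 higher and 2 lower. At an unadjusted p under 0.05 there was 1 member in Q22 against NTg (Tardbp, with 4.23% of all genes), 1 in TDP-43 against NTg (Hnrnpa2b1, with 4.23%) and 1 in Q22;TDP-43 against Q22 (Tardbp, with 4.12%). There were 0 in Q33 against NTg (7.28% of all genes), in Q22;TDP-43 against NTg (2.3%) or TDP-43 (2.41%), and in Q33 against Q22 (2.14%). Effects of ATXN2 and TDP-43 were compared directly in the interactions. With Q33, the interaction estimates were -0.32 for Ewsr1 (SE 0.11), -0.34 for Taf15 (SE 0.11), -0.45 for Hnrnpa2b1 (SE 0.13) and 0.40 for Tdp2 (SE 0.15). All 4 had an unadjusted p under 0.05, as did 13% of all genes, with adjusted p-values of 0.25 to 0.29, so none passed over all genes. With Q22 the estimates of these genes were -0.04, -0.07, -0.13 and 0.13, and Tardbp alone of the 8 had an unadjusted p under 0.05 (0.21, SE 0.10, adjusted p = 0.94), as did 4.01% of all genes.

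Ewsr1, Taf15 and Hnrnpa2b1 also varied together from library to library. Pearson's r of log2 CPM over the 18 libraries was 0.86 for Ewsr1 with Hnrnpa2b1, 0.82 for Taf15 with Hnrnpa2b1 and 0.71 for Ewsr1 with Taf15. After genotype means were taken off, these were 0.68, 0.65 and 0.30. Hnrnpk, which was called in no comparison, followed them within genotypes as closely, with 0.73 for Ewsr1, 0.61 for Hnrnpa2b1 and 0.28 for Taf15 (0.44, 0.43 and 0.20 over all libraries). Tdp2 ran opposite to them, with r = -0.76 to Taf15, -0.72 to Ewsr1 and -0.63 to Hnrnpa2b1, and -0.42, -0.34 and -0.17 within genotypes. Tardbp followed none of the 3 (r = 0.07 with Ewsr1, -0.11 with Taf15 and 0.06 with Hnrnpa2b1). The values share library depth and tissue makeup, so they are given without a test.

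**Figure D4:**
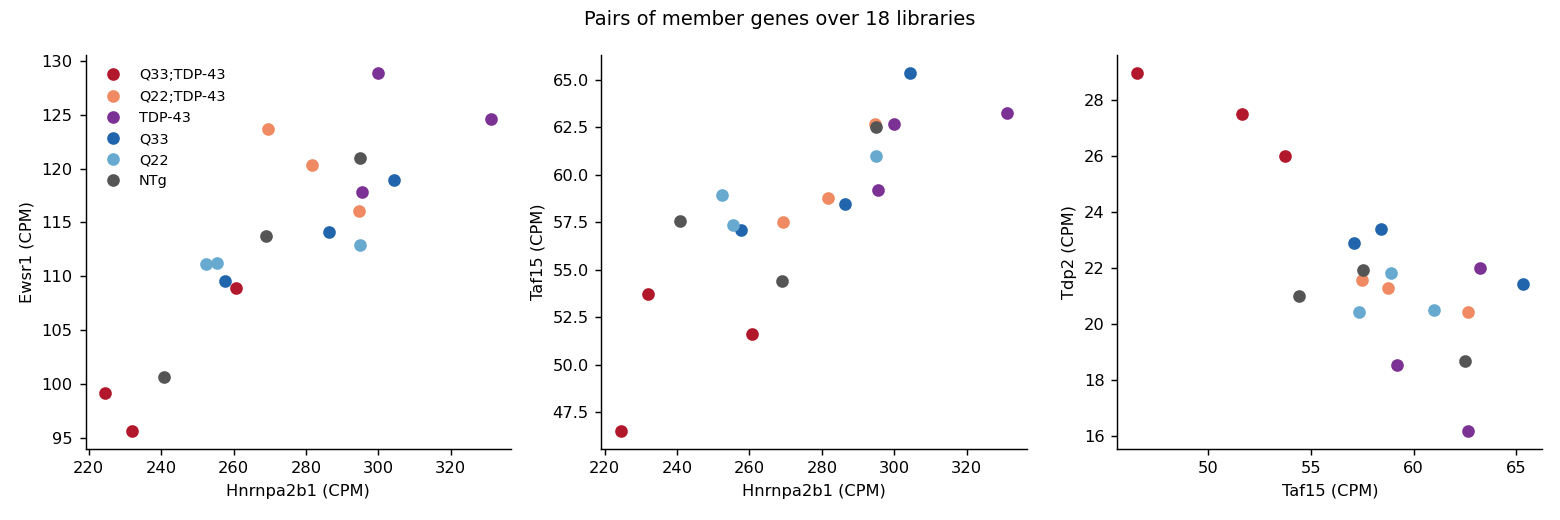
CPM of pairs of members in the 18 libraries, 1 point per library coloured by genotype: Ewsr1 and Taf15 against Hnrnpa2b1, and Tdp2 against Taf15. The first pairs rise together (r of log2 CPM 0.86 and 0.82) and the last runs opposite (r = -0.76), with the 3 Q33;TDP-43 cords at one end of the last panel.

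Because these 3 genes moved together, the bases just before their first counted exon are shown (RefSeq promoter windows of GRCm38.p6, cut where the counted gene begins). Of the 8 members, 6 had a window. Capitals mark the CCAAT box, the GC box GGGCGG and the letters TGACG, on either strand. The stretches are chr11:5099267-5099346 for Ewsr1 (minus strand), chr11:83472858-83473085 for Taf15 (plus strand) and chr6:51469895-51470144 for Hnrnpa2b1 (minus strand):
Ewsr1: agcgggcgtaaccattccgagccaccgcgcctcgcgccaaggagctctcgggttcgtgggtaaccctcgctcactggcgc
Taf15: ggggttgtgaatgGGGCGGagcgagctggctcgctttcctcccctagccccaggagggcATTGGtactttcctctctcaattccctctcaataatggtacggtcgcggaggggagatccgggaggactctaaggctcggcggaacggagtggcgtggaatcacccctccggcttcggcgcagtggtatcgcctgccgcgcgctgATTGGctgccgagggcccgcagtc
Hnrnpa2b1: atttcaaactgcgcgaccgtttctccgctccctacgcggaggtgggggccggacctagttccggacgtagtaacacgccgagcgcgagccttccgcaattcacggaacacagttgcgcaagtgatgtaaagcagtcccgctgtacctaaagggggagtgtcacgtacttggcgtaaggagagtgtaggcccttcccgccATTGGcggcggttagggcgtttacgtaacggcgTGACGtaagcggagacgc
Taf15 shows CCAAT at 2 places and GGGCGG at 1, Hnrnpa2b1 shows CCAAT at 1 and TGACG at 1, and the 80 bases of Ewsr1 hold none of the 3. Among 32851 windows of 300 bases, 37.4% hold CCAAT, 35.7% GGGCGG and 20.8% TGACG, so each is common. The full windows of the 3 genes have 60.0% to 66.3% G and C and 29 to 39 CpG pairs, against medians of 52.7% and 7 over all windows. No motif was thus shared by all 3 stretches, which differ in length (80, 228 and 250 bases). In the full windows of 300 bases, Ewsr1 and Hnrnpa2b1 each hold TGACG at 1 place and Taf15 at 0. For Ewsr1, Taf15 and Hnrnpa2b1, the full windows hold CCAAT at 0, 2 and 1 places and GGGCGG at 0, 2 and 0. No motif is shared by all 3 full windows either, and factor binding was not measured.

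Genes of the same pathways were read from lists. Among 27 other hnRNP genes, Q33;TDP-43 cords had 0 higher and 3 lower against NTg, 0 and 5 against TDP-43, 0 and 2 against Q22;TDP-43, and 0 and 1 against Q33. These are 11.1%, 18.5%, 7.41% and 3.70% of the list, where 12.1%, 12.6%, 12.8% and 0.892% of all genes were called, so the counts against NTg and Q22;TDP-43 are no result about hnRNP genes. Median log2 fold changes of the list were -0.02, -0.05, -0.06 and -0.05, against -0.01, -0.02, -0.01 and -0.01 over all genes tested. Hnrnpr, which binds mRNA of axons, had 67.8, 65.1 and 71.8 CPM in Q33;TDP-43 cords and 97.5, 96.4 and 89.9 CPM in NTg cords. It was lower in all 4 comparisons (log2 fold change -0.47 against NTg, SE 0.08, adjusted p = 0.0013). The call against Q33 (adjusted p = 0.045) was lost without any 1 of the 6 libraries except 33-glutamine double-mutant replicate 3 (0.077 to 0.22) and under 5 of 8 other settings, and all 4 were lost with the mitochondrial share as covariate (0.064 to 0.45). Hnrnph3 had 17.4, 22.4 and 20.1 CPM in Q33;TDP-43 cords and 26.1, 26.9 and 31.8 CPM in TDP-43 cords (-0.51, SE 0.12, adjusted p = 0.014), a call lost without TDP-43 replicate 3 or 33-glutamine double-mutant replicate 1 (0.086 to 0.093). Ptbp3, a relative of the splicing repressor PTB, fell against NTg (-0.78, SE 0.19, adjusted p = 0.013), a call lost without NTg replicate 3 or 33-glutamine double-mutant replicate 1 or 2 (0.054 to 0.085).

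Sfpq, a paraspeckle protein gene, had 109.5, 129 and 134 CPM in Q33;TDP-43 cords and 173, 167 and 170.4 CPM in TDP-43 cords (-0.45, SE 0.11, adjusted p = 0.011), a call lost without TDP-43 replicate 3 or 33-glutamine double-mutant replicate 1 (0.053 to 0.081). Zfr, a zinc finger gene that binds RNA, fell against Q22;TDP-43 (-0.27, SE 0.08, adjusted p = 0.041), a call lost without any 1 of the 6 libraries except 33-glutamine double-mutant replicate 3 (0.062 to 0.18).

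Among 15 SR splicing factor genes, 2 fell against Q22;TDP-43 and 1 against each of TDP-43, Q33 and NTg, with 0 higher and medians of -0.16, -0.14, -0.08 and -0.07. These are 13.3%, 6.67%, 6.67% and 6.67% of the list, where 12.8%, 12.6%, 0.892% and 12.1% of all genes were called. The counts against Q22;TDP-43, TDP-43 and NTg are thus no result about SR genes. Srrm1, a splicing coactivator, was the gene called in all 4: it had 115, 122 and 122 CPM in Q33;TDP-43 cords and 158, 150.0 and 149 CPM in NTg cords (-0.35, SE 0.07, adjusted p = 0.0066). Its call against Q33 (adjusted p = 0.027) was lost without any 1 of the 6 libraries except 33-glutamine double-mutant replicate 3 (0.051 to 0.18). Srsf5 fell against Q22;TDP-43 (-0.34, SE 0.11, adjusted p = 0.047), a call lost without 22-glutamine double-mutant replicate 2 or 3 or 33-glutamine double-mutant replicate 1 or 3 (0.087 to 0.22). Tra2a did not pass in any comparison (-0.36 against TDP-43, adjusted p = 0.053).

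A list of RNA-binding protein genes of the Elavl, Celf, Nova, Rbfox, Khdrbs, Mbnl and Qk families, called neuronal here, moved both ways. Whether their RNA came from neurons was not tested. Of its 21 genes, 3 were higher and 7 lower in Q33;TDP-43 than in NTg cords. Against TDP-43 there were 3 and 6, against Q22;TDP-43 3 and 6, and against Q33 0 and 1. In both directions together these are 47.6%, 42.9%, 42.9% and 4.76% of the list. Of all genes, 12.1%, 12.6%, 12.8% and 0.892% were called. The genes of the list were not chosen at random, so these shares are a description. Celf5 had 5.18, 7.23 and 5.97 CPM in Q33;TDP-43 cords and 19.8, 16.9 and 19.9 CPM in NTg cords (log2 fold change -1.62, SE 0.22, adjusted p = 0.00030). Celf3 fell by 1.34 on the log2 scale against NTg (SE 0.22, adjusted p = 0.0014), and both encode CELF family splicing regulators. Elavl4, a neuronal Hu protein gene that stabilises mRNA, had 197, 148 and 168 CPM in Q33;TDP-43 cords and 120.2, 133 and 122 CPM in NTg cords (0.46, SE 0.10, adjusted p = 0.0086), a call lost without 33-glutamine double-mutant replicate 1 (0.072). Medians of this list against NTg, TDP-43, Q22;TDP-43 and Q33 were -0.06, -0.07, -0.11 and -0.07. Over all genes tested they were -0.01, -0.02, -0.01 and -0.01.

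Nuclear import receptor genes, which carry FET and hnRNP proteins into the nucleus, had a few members higher and none lower. Of 13, 4 were higher against Q22;TDP-43, 1 against TDP-43, 1 against NTg and 0 against Q33, with medians of 0.18, 0.11, 0.10 and 0.16. These are 30.8%, 7.69%, 7.69% and 0% of the list, where 12.8%, 12.6%, 12.1% and 0.892% of all genes were called. The counts against TDP-43 and NTg are thus no result about import receptors. With library totals in place of TMM scaling 0 of the 13 were called. The medians of the list were then -0.05, -0.12, -0.14 and 0.02, so the higher direction depends on scaling. Kpna1, an importin alpha gene, had 199, 177 and 170.4 CPM in Q33;TDP-43 cords and 136, 159 and 154 CPM in NTg cords (0.28, SE 0.08, adjusted p = 0.035), a call lost without NTg replicate 1 or 3 or 33-glutamine double-mutant replicate 1 or 2 (0.060 to 0.18). Kpna2 (0.54, adjusted p = 0.038) and Tnpo2, a transportin gene (0.30, adjusted p = 0.041), rose against Q22;TDP-43, and both calls were lost without 22-glutamine double-mutant replicate 2 or 3 or 33-glutamine double-mutant replicate 1 or 2 (0.063 to 0.22).

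Among 13 genes of topoisomerase and end-joining repair, the pathway of Tdp2, 1 fell against NTg and 0 were called against the other genotypes. That gene, Prkdc, the DNA-dependent protein kinase, had 49.1, 51.4 and 54.9 CPM in Q33;TDP-43 cords and 60.2, 69.3 and 68.5 CPM in NTg cords (-0.35, SE 0.10, adjusted p = 0.033), a call lost without NTg replicate 2 or 3 or 33-glutamine double-mutant replicate 1 or 2 (0.081 to 0.14). Xrcc5 (Ku80) had 28.6, 28.6 and 29.8 CPM in Q33;TDP-43 cords and 23.9, 25.8 and 22.3 CPM in NTg cords (0.27, adjusted p = 0.052). Mre11a was at -0.23 (adjusted p = 0.12). Medians of the list ran from -0.13 to -0.05. The 1 call against NTg is 7.69% of the list, where 12.1% of all genes were called, so it is no result about repair genes as a set. Of all genes, 12.6% were called against TDP-43, 12.8% against Q22;TDP-43 and 0.892% against Q33. Of 15 nonsense-mediated decay genes, 0 were called in the 4 comparisons by edgeR or DESeq2, with 0 to 3 genes at an unadjusted p under 0.05 in edgeR. Of all genes tested, DESeq2 called 1750 higher and 1489 lower against NTg, and 1758 and 1614 against TDP-43. Against Q22;TDP-43 it called 1865 and 1531, and against Q33 555 and 487. In the 10 remaining comparisons edgeR called 0 genes of the lists given here, with at most 7 of a list at an unadjusted p under 0.05. DESeq2 called 1 there in each of the SR and neuronal lists.

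Summed markers of neurons, oligodendrocytes and microglia in the double mutants with 33 glutamines lay toward an end of the range of all cords. Summed neuron markers were 9649 to 12287 CPM in Q33;TDP-43 cords, 6243 to 8287 in Q22;TDP-43, 5733 to 9206 in TDP-43, 8333 to 10475 in Q33, 7642 to 10471 in Q22 and 6349 to 7421 in NTg cords, so that Q33 and Q22 cords reached into the range of the double mutants. Summed oligodendrocyte markers were 9838 to 12293 CPM in Q33;TDP-43 and 13409.9 to 15023 CPM in NTg cords, and the lowest Q22;TDP-43 (11754 CPM) and Q33 (12165 CPM) cords reached into the first range. Microglia markers were 95.7 to 118 CPM in Q33;TDP-43 and 148 to 177 CPM in NTg cords, with the lowest Q22;TDP-43 cord at 117 CPM. Not all types stood apart in this way in summed values. In summed markers of astrocytes, motor neurons, oligodendrocyte precursors, endothelial, ependymal and Schwann cells, the 33-glutamine double mutants overlapped the TDP-43 cords. Motor neuron markers were 172 to 390 CPM in these double mutants and 129 to 233 CPM in TDP-43 cords. Precursor markers were 125 to 152 and 131 to 147 CPM, and ependymal markers 11.7 to 19.3 and 12.8 to 20.2 CPM. Sums weight the most abundant genes, and means of log2 CPM over the same markers sorted astrocytes and neurons otherwise. Astrocyte means were 7.92, 8.27 and 8.31 in Q33;TDP-43 cords and 8.43 to 8.81 in all other libraries. Neuron means were 9.03 to 9.41 in Q33;TDP-43 cords and overlapped the 8.53 to 9.09 of TDP-43 cords. In bulk tissue, fewer cells of a type and less RNA per cell cannot be told apart. With the mitochondrial ribosomal share as a covariate, 0 of the 7 calls of members remained: Ewsr1, Taf15, Hnrnpa2b1 and Tdp2 against TDP-43 became -0.21, -0.13, -0.26 and 0.27, with adjusted p-values of 0.59 to 0.75. With the Hox mean as a covariate the same values were -0.32, -0.22, -0.32 and 0.52 (adjusted p 0.053 to 0.23), beside -0.29, -0.29, -0.37 and 0.54 without it. Genotype means of the mitochondrial share were 26.1% in Q33;TDP-43 cords and 17.7% to 20.4% elsewhere. This covariate and the Q33;TDP-43 genotype thus cannot be fully told apart. How many of all genes kept a call with either of these covariates was not counted, so the losses are no result about the members. The part of cell makeup in these differences was not tested.

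With the mitochondrial share as covariate, each call of a list gene whose fold change is given above was lost as well. The same limit holds for these losses.

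**Figure D5:**
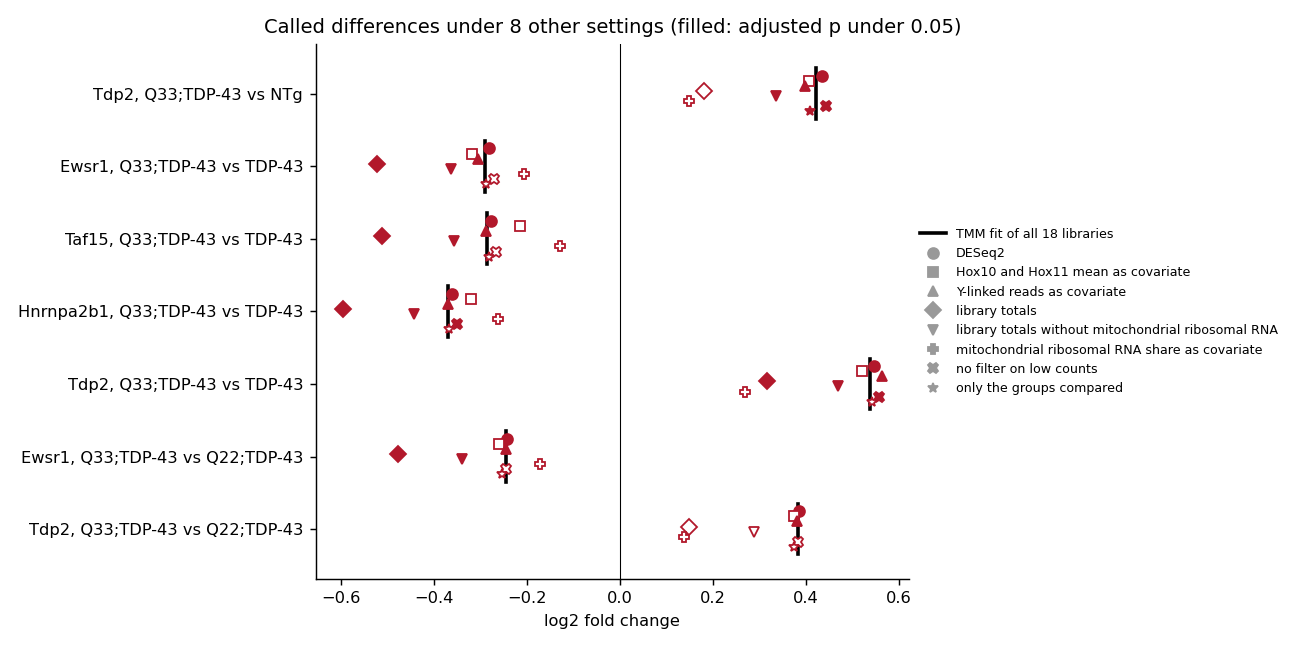
Log2 fold change of the 7 called member differences (rows) in the TMM fit of all 18 libraries (bars) and under 8 other settings (symbols), filled where the adjusted p was under 0.05. No symbol crosses 0, and the symbols for the mitochondrial ribosomal share and the Hox mean are open in all rows.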

How the data were processed

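Spinal cord RNA was extracted with QIAzol and miRNeasy columns, depleted of ribosomal RNA and made into stranded SMARTer libraries, per the labels' protocols. Whole-number counts of read pairs per gene were made by the authors with featureCounts 1.6.1 on exons of GENCODE vM19 (strand set, pairs counted for 1 gene, pairs with ends on different chromosomes dropped), per the file headers. Trim Galore 0.4.1, TopHat2, DESeq2 and mm10 are named in the submitters' processing notes. Symbols were matched for 54409 of 54446 identifiers.

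From the deposited counts, edgeR 4.0.16 (R 4.3.3, limma 3.58.1) fitted all 18 libraries with a term per genotype, TMM factors (0.861 to 1.109) and edgeR's filter for low counts. Quasi-likelihood tests were two-sided, with Benjamini-Hochberg adjustment over 20635 genes within each of 14 comparisons at 0.05. The script was tested on simulated data. CPM used TMM, and log2 CPM a prior count of 2. Alternatives were other scalings, DESeq2 1.42.0, no filter, the compared groups only, covariates, and each library left out. One list of paraspeckle and related genes is not reported here as a whole. Of each other list, the 3 genes with the smallest p where the list had a called gene were named. Members and lists were chosen with earlier results of these data known. Replicate numbers follow deposit order and pair nothing. Depth was 16061359 to 30978678 counts per library, where 3 counts correspond to at most 0.19 CPM, and read pairs lack molecular identifiers, so they need not be independent molecules. The sources used here do not give sex, litter or lane.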

Additional observations from a re-analysis of the deposited data

Results flagged for a closer look

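Between cords with and without human TDP-43, Tardbp differed in opposite directions in 2 backgrounds, with no overlap of libraries in either. Each library is from its own mouse. The share of all genes with such a pattern was not counted, so the pattern is a description only. TDP-43 cords had 118 to 123 CPM against 124 to 127 CPM in NTg cords, and Q22;TDP-43 cords had 112 to 129 CPM against 107 to 110.3 CPM in Q22 cords. The difference between the 2 effects was 0.21 on the log2 scale (SE 0.10, unadjusted p = 0.041, adjusted p = 0.94 in edgeR), which fails the correction over all genes. Of all genes, 4.01% had an unadjusted p under 0.05 in that test.

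Ewsr1 differed in the same way between the ATXN2 forms. Q33;TDP-43 cords had 95.6 to 109 CPM against 109.5 to 119 CPM in Q33 cords, and Q22;TDP-43 cords had 116 to 124 CPM against 111 to 113 CPM in Q22 cords. Of all genes, 22.7% had no overlap between Q33;TDP-43 and Q33 libraries. The share with opposite directions in both pairs was not counted, so this too is a description only. The difference between the effects was -0.28 (SE 0.11, unadjusted p = 0.021, adjusted p = 0.24 in edgeR, a contrast added after the values were seen), which also fails the correction.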

How the results depend on the processing

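Counts of called members changed with the setting. Q33;TDP-43 against NTg had 1 member called, with 5 under library totals, 2 under totals without mitochondrial ribosomal RNA, 0 with the mitochondrial share or the Hox mean as covariate, and 0 to 1 with 1 library left out. Tdp2 lost its call there without NTg replicate 1 (adjusted p = 0.067) or Q33;TDP-43 replicate 1 (0.086). Against TDP-43 there were 4, with 5 under library totals, 2 without the filter, 0 with either covariate or the compared groups alone, and 1 to 3 with 1 library left out (1 without TDP-43 replicate 3 or Q33;TDP-43 replicate 1). Tdp2 was called in all 6 fits that left out 1 TDP-43 or Q33;TDP-43 library. Against Q22;TDP-43 there were 2, with 4 under library totals, 0 without the filter, with either covariate or the compared groups alone, and 0 to 2 with 1 library left out (0 without Q22;TDP-43 replicate 2 or 3 or Q33;TDP-43 replicate 1, 1 without Q22;TDP-43 replicate 1 or Q33;TDP-43 replicate 2). The cause was not tested. How many of all genes were called without the filter, with a covariate, in the compared groups alone or with 1 library left out was not counted. Falls in those settings are thus no result about the members. Under library totals the median of all genes moved to -0.25 in these 3 comparisons (NTg, TDP-43 and Q22;TDP-43), where the TMM fit has -0.01, -0.02 and -0.01. The split of all called genes against NTg was then 209 higher and 3936 lower, beside 1173 and 1318 with TMM. Against TDP-43 it was 256 and 3827, beside 1235 and 1375 with TMM. Against Q22;TDP-43 it was 295 and 3622, beside 1376 and 1274. The 5 members called against NTg under totals were Tardbp (-0.28, adjusted p = 0.016), Ewsr1, Taf15, Hnrnpa1 and Hnrnpa2b1, all lower, while Tdp2 was at 0.18 (adjusted p = 0.18). Hnrnpa1 changed sign near 0: against NTg it was 0.039 with the Hox mean and -0.092 to 0.040 with 1 library left out (0.012 without NTg replicate 3, 0.040 without Q33;TDP-43 replicate 3). Against TDP-43 it was 0.049 with the Hox mean, 0.026 with Y-linked reads, and -0.092 to 0.043 with 1 library left out (0.018 without TDP-43 replicate 1, 0.029 without TDP-43 replicate 2, 0.043 without Q33;TDP-43 replicate 3). The Tardbp carrier difference was 0.03 to 0.06 with 1 library left out (exact permutation p 0.12 to 0.39). The mitochondrial share was highest in the 3 Q33;TDP-43 cords, while the Hox mean was also high in 1 Q22;TDP-43 and 2 Q33 cords. No paired analysis was possible because each library is from its own mouse and the sources used here give no litter or lane.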
